A study of Mus musculus with 10 samples.

Results

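The genes described are the mouse Rab GTPases, the synaptotagmins with the related synaptotagmin-like proteins, and the SNAREs of the syntaxin, VAMP and SNAP families. They were chosen by symbol alone: Rab followed by a number, Stx, Vamp or Snap followed by a number, and Syt or Sytl followed by a number, on probe sets that name 1 gene. Where a gene had several such probe sets, the one with the highest mean over the arrays stood for it. This gave 91 genes of the 12393 measured: 50 Rabs, 14 synaptotagmins, 3 synaptotagmin-like proteins, 12 syntaxins, 7 VAMPs and 5 SNAPs. Snap91 matches the rule by its symbol but encodes a clathrin adaptor and not a SNARE.

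Rab GTPases mark the membranes of transport vesicles and compartments and, when bound to GTP, recruit the motors, tethers and adaptors that move and dock them. Membranes then fuse through SNAREs, of which one on the vesicle (a VAMP) pairs with those on the target (a syntaxin and a SNAP), and synaptotagmins bind calcium and time fusion in regulated secretion, in which granules wait for a signal. Goblet, Paneth and enteroendocrine cells of the intestine store their products in such granules, while the absorptive enterocyte sends transporters and enzymes to its brush border along an apical route of recycling endosomes in which Rab11, Rab8, Myosin 5B and Syntaxin 3 take part.

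The study set stem cells of the mouse small intestine beside the progenitors of its secretory and absorptive branches, on 10 Affymetrix 430A 2.0 arrays in 5 groups of 2. All mice were C57BL/6, and ages are not given in the sources used here. Lgr5-positive stem cells (ISC) were sorted for green fluorescent protein from mice carrying Lgr5-eGFP-Cre. Secretory progenitors of the crypt (Sec-Pro) were enriched either by deletion of Rbpj, through which activated Notch binds DNA (Rbpj Sec-Pro), or by dibenzazepine, an inhibitor of Notch signalling (DBZ Sec-Pro). Enterocyte progenitors (Ent-Pro) were crypt epithelium, and enterocytes (ENT) villus epithelium, of Atoh1-/- mice, which the labels describe as without secretory cells. Crypts were released with 5 mM EDTA over 50 min and villi with 5 mM EDTA over 25 min. The labels give no promoter, dose or time for either way of enriching Sec-Pro, nor the deleted part of Rbpj or Atoh1. Whether the arrays of 1 group stem from different animals is not stated either, and the p-values then reflect only how far these samples spread, which may be technical spread. Only ISC were sorted, so in comparisons with ISC the sorting and the cell type cannot be told apart, and Ent-Pro and ENT lack the secretory lineage by design, so the direction of secretory genes against them was largely set by the design.

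Values are log2 expression as deposited, with array medians from 6.83 to 6.98 and correlations between the arrays of a group from 0.982 to 0.995. A gene below the array's highest reading of the absent control TrpnX plus 1, a bound from 4.70 to 5.05 set after the data had been seen, on both arrays of a group is described as near background in that group. Folds against such a group are computed against that bound and written "at least". The defining markers followed the labels only in part. Lgr5 read 11.06 to 11.36 in ISC and 6.31 to 8.80 elsewhere. The goblet product Tff3 read 13.35 to 14.84 in ISC and Sec-Pro and 6.77 to 7.23 in Ent-Pro and ENT. The enterocyte gene Fabp1 read 12.08 to 12.16 in ISC and 13.97 to 14.61 elsewhere. Tff3 was thus high in ISC as well as in Sec-Pro, and Fabp1 in Sec-Pro as well as in Ent-Pro and ENT. Atoh1 was lowest in the Atoh1-/- groups (4.97 to 5.78, against 7.68 to 11.85). Rbpj read 6.62 and 6.74 where it was deleted, but also 7.00 and 7.21 in ENT, against 8.07 to 8.31 in the other groups. Markers of leukocytes, 12 measured, were not at background in most groups: their mean was 5.33 and 5.56 in ISC, 6.08 and 6.19 in Ent-Pro, 7.52 and 7.73 in ENT, 7.01 and 7.88 in DBZ Sec-Pro, and 8.37 and 6.64 in Rbpj Sec-Pro, where replicate 1 stood apart. In such bulk samples fewer cells of a type and less RNA per cell cannot be told apart.

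The 91 genes had different peaks. Of their group means, 36 were highest in ENT, 29 in DBZ Sec-Pro, 13 in ISC, 8 in Rbpj Sec-Pro and 5 in Ent-Pro, and 34 were lowest in ISC. In the map of all members, strong red squares lie in the DBZ Sec-Pro column for Sytl2, Rab15, Rab27b, Rab3d, Snap25 and Rab3c. The squares of these genes are paler in the Rbpj Sec-Pro column, and Rab30 is red in Rbpj Sec-Pro and ENT. Across 6 comparisons 66 members passed the test at least once and 25 never did. In single comparisons 16.4% to 45.6% of all genes were called. How many of all genes passed at least once, or peaked in each group, was not counted. Near background in every group were 7 members (Snap91, Stx19, Syt1, Syt4, Syt9, Syt10 and Syt13), and 75 members were near background in none.

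**Figure D1:**
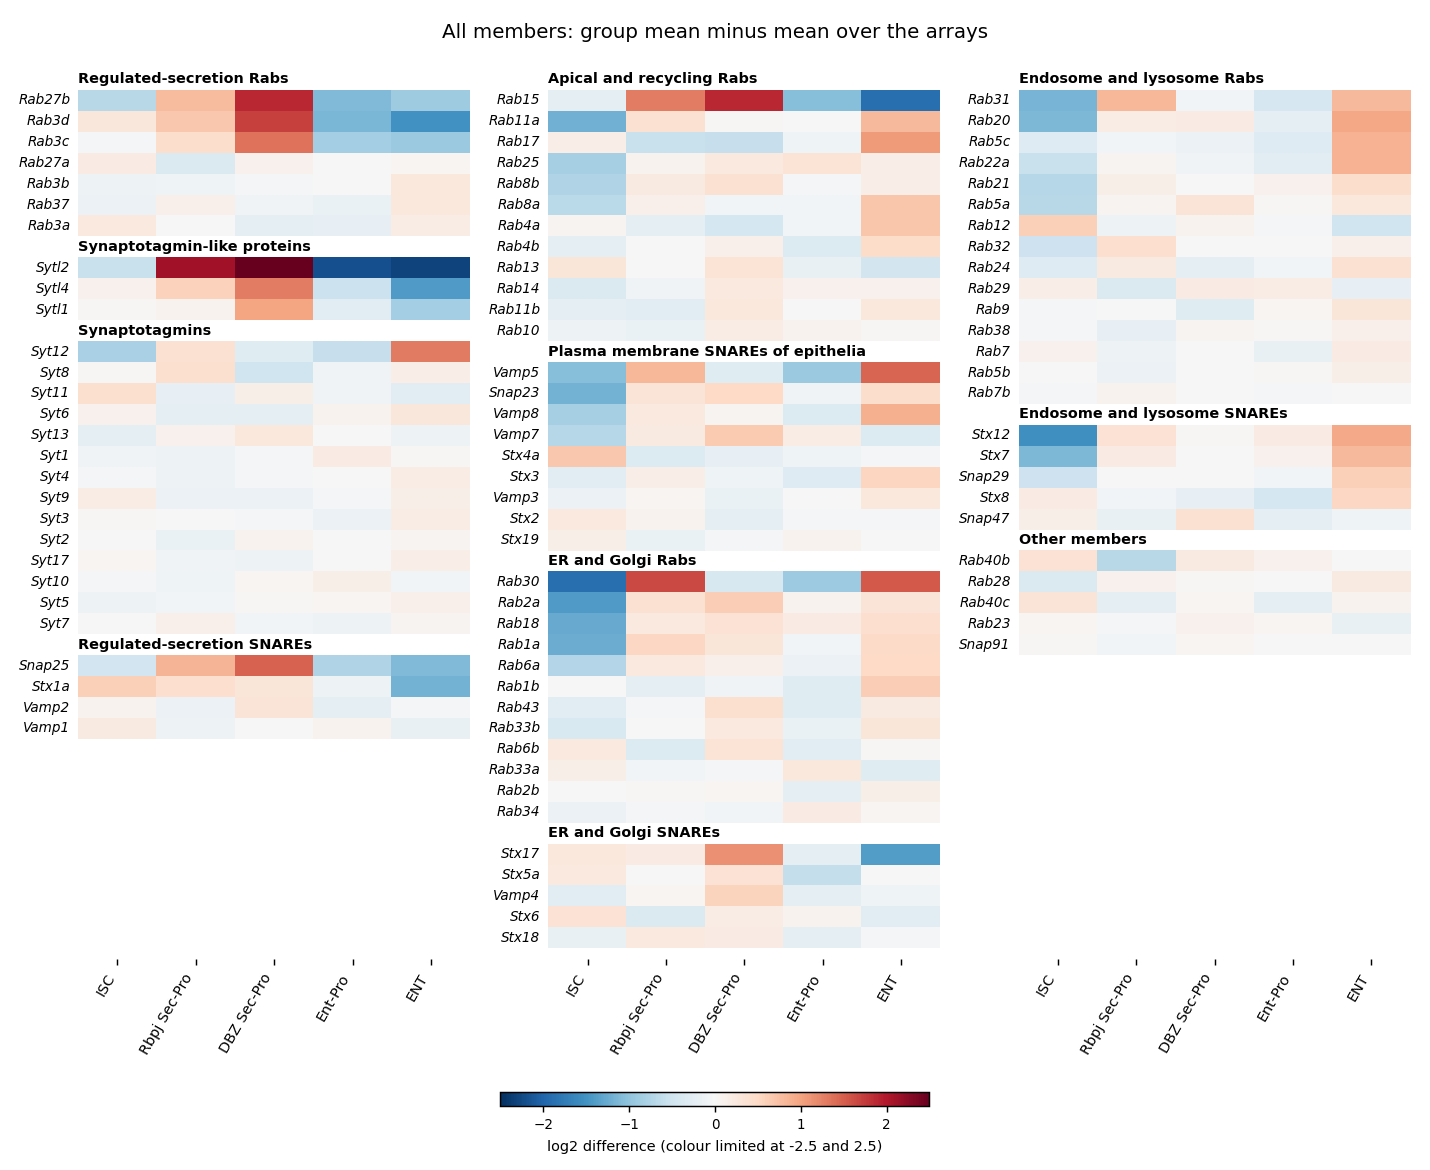
Each row is a member gene and each column one of the 5 groups; colour gives the mean of the group's 2 arrays minus the gene's mean over all 10 arrays on the log2 scale, limited at -2.5 and 2.5, with genes arranged by list. The deepest red is Sytl2 in DBZ Sec-Pro, and Stx12, Rab1a, Rab2a and Rab18 are blue in ISC and red or pale in the other groups.

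Sec-Pro against Ent-Pro, which sets the 2 branches side by side in the crypt, moved Sytl2, Rab15, Rab27b and Rab3d most. Sec-Pro here is the equal mean of its 2 groups. Of 91 members 21 were higher in Sec-Pro and 1 was lower, 24.2% in all, beside 24% of all genes tested, 9.27% higher and 14.7% lower. The median log2 fold change of the members was 0.13 and that of all genes -0.09. Of the 7 Rabs of regulated secretion 3 rose and 4 did not pass (median 0.18), and all 3 synaptotagmin-like proteins rose (median 1.46).

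Sytl2, whose product binds Rab27 on secretory vesicles and the plasma membrane, read 9.33 and 9.31 in Rbpj Sec-Pro, 10.02 and 10.37 in DBZ Sec-Pro, 5.24 and 4.82 in Ent-Pro, 4.44 and 5.36 in ENT and 6.51 and 6.82 in ISC. The 4 Sec-Pro arrays lay above all others, and those of ISC between them and the Atoh1-/- groups. Readings in the Atoh1-/- groups lay around the background bound of 4.70 to 5.05, so differences from these groups rest on values close to it. Sec-Pro was 26.4-fold higher than Ent-Pro (log2 fold change 4.72, SE 0.25, adjusted p = 7.2e-06), the largest difference of any member in any of the 6 comparisons but one, that of the same gene against ENT (4.86, SE 0.25, adjusted p = 4.3e-06). Sytl4, or granuphilin, an effector of Rab27 and Rab3 on dense granules, read 6.61 and 6.91 with Rbpj deleted and 7.34 and 7.60 with DBZ against 5.66 and 5.64 in Ent-Pro. It was 2.76-fold higher (1.46, SE 0.14, adjusted p = 0.00021). Its other probe set was dim and flat (4.49 to 4.78 by group), and with the mean of both the log2 fold change was 0.69 (adjusted p = 0.0023). Sytl1 rose less, from 6.88 ± 0.12 (SD, n = 2) to 7.69 ± 0.55 (SD, n = 4), which is 1.75-fold (adjusted p = 0.0058 by limma).

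Rab27b, which tethers secretory granules at the cell periphery, read 9.35 and 9.51 in Rbpj Sec-Pro, 10.46 and 10.57 in DBZ Sec-Pro, 7.67 and 7.42 in Ent-Pro, 7.61 and 7.89 in ENT and 7.90 and 7.99 in ISC. The Sec-Pro arrays stood apart from the other 6, which lay between 7.42 and 7.99. Sec-Pro was 5.38-fold above Ent-Pro (2.43, SE 0.13, adjusted p = 7.2e-06). Rab3d, the Rab of exocrine granules, read 9.81 and 10.23 in Rbpj Sec-Pro, 10.80 and 11.35 in DBZ Sec-Pro, 7.91 and 8.51 in Ent-Pro, 7.98 and 7.71 in ENT and 9.77 and 9.50 in ISC. ISC nearly reached Rbpj Sec-Pro, and the Atoh1-/- groups were lowest and overlapped. Sec-Pro was 5.05-fold above Ent-Pro (2.34, SE 0.22, adjusted p = 0.00025). On the other probe sets of Rab3d the means of ISC and Rbpj Sec-Pro were 7.94 and 9.24, 7.82 and 8.69, and 5.98 and 5.53. Rab3c, a close relative of the synaptic vesicle Rab3a, read 5.98 and 4.70 with Rbpj deleted and 6.47 and 6.08 with DBZ, and was near background in Ent-Pro (4.12 and 4.02) and ENT (3.96 and 4.01). Sec-Pro exceeded Ent-Pro at least 2.00-fold (measured log2 fold change 1.74, SE 0.32, adjusted p = 0.0067), and the mean of its probe sets gave 0.93 (adjusted p = 0.011).

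The other Rabs of regulated secretion did not pass. Rab3a read 6.50 to 6.80 in Sec-Pro against 6.64 and 6.44 in Ent-Pro. Rab27a, the Rab27 of melanosomes and cytotoxic granules, read 4.89 and 5.03 in Rbpj Sec-Pro, 5.26 and 5.61 in DBZ Sec-Pro and 5.37 and 5.31 in Ent-Pro, a difference of -0.14 with overlapping arrays. Its probe sets disagreed: a dimmer one had group means of 4.36 and 4.52 in Rbpj and DBZ Sec-Pro and 3.36 to 3.54 in the other groups, all under the background bound, and with it, the most variable of the 3, the log2 fold change was 1.08 (adjusted p = 0.0017). No direction is given for Rab27a.

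Rab15, placed in the list of apical and recycling Rabs for its role in the recycling of endocytosed receptors, had the second largest difference. It read 10.90 and 10.88 in Rbpj Sec-Pro, 11.44 and 11.54 in DBZ Sec-Pro, 8.44 and 8.64 in Ent-Pro, 7.99 and 7.44 in ENT and 9.26 and 9.50 in ISC. The order from ENT through Ent-Pro, ISC and Rbpj Sec-Pro to DBZ Sec-Pro had no overlap between neighbours, though Rbpj and DBZ Sec-Pro did not pass the test against each other. Sec-Pro was 6.27-fold above Ent-Pro (2.65, SE 0.16, adjusted p = 1.8e-05). The rest of its list behaved otherwise: of 12, Rab4b was also higher (0.40, SE 0.12, adjusted p = 0.042), Rab17, the Rab of apical recycling in epithelia, was lower (-0.46, SE 0.14, adjusted p = 0.043) and 9 did not pass. Among those 9 were Rab11a (0.19, SE 0.18), Rab8a (0.09, SE 0.12) and Rab25 (-0.17, SE 0.11).

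**Figure D2:**
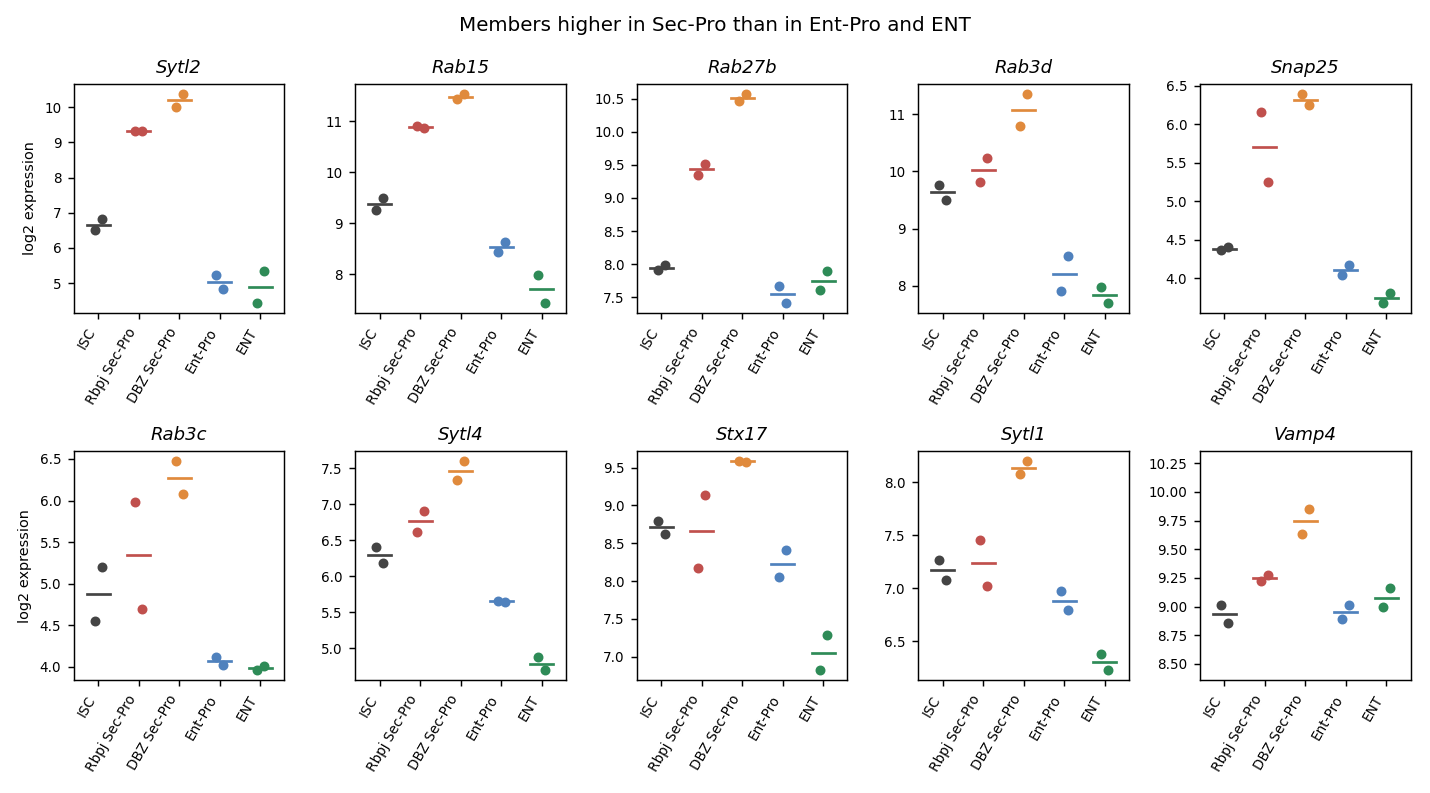
Log2 expression (vertical axis, a different range in each panel) of 10 members higher in Sec-Pro than in both Ent-Pro and ENT, in the 5 groups along the horizontal axis; points are arrays and lines group means. For Sytl2, Rab15, Rab27b and Sytl4 all 4 Sec-Pro arrays lie above the other 6, while for Snap25 and Rab3c the Rbpj Sec-Pro arrays are far apart.

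Among SNAREs the neuronal and endocrine Snap25 rose and the other 3 of its list did not pass. Snap25, which pairs with Syntaxin 1 at the plasma membrane, read 6.16 and 5.25 with Rbpj deleted and 6.39 and 6.25 with DBZ. It was near background in Ent-Pro (4.04 and 4.18), ENT (3.68 and 3.81) and ISC (4.36 and 4.40). Against Ent-Pro it was at least 2.30-fold higher (measured 1.90, SE 0.22, adjusted p = 0.00065). Stx1a read 8.39 and 7.46 in Rbpj Sec-Pro, 7.85 and 7.78 in DBZ Sec-Pro, 7.22 and 7.54 in Ent-Pro and 7.83 and 8.40 in ISC, so that the groups overlapped. Vamp2, the vesicle partner of Snap25, read 6.79 to 7.57 in Sec-Pro and 6.79 and 6.90 in Ent-Pro, and did not pass either.

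Of the 5 SNAREs of the ER and Golgi 4 were higher in Sec-Pro (median 0.54): Stx5a, which acts between ER and Golgi, read 10.17 to 10.68 in Sec-Pro and 9.64 and 9.69 in Ent-Pro, 1.72-fold higher (0.78, SE 0.10, adjusted p = 0.0013), and Vamp4 of the trans-Golgi was 1.46-fold higher (adjusted p = 0.011). Stx18 of the ER and Stx17, better known from the fusion of autophagosomes, were 1.38-fold and 1.85-fold higher (adjusted p = 0.029 and 0.034), and the arrays of Stx17 overlapped. Of the 12 ER and Golgi Rabs 4 were higher and 8 did not pass (median 0.28). Rab30, a Golgi Rab, read 10.18 and 9.20 with Rbpj deleted, 8.29 and 7.00 with DBZ and 6.95 and 7.31 in Ent-Pro. Its arrays overlapped, and it was 2.91-fold higher (1.54, SE 0.37, adjusted p = 0.019). Rab1a, needed for transport from ER to Golgi, rose from 13.00 ± 0.08 (SD, n = 2) to 13.48 ± 0.19 (SD, n = 4), 1.40-fold (adjusted p = 0.030 by limma), and Rab2a 1.33-fold (adjusted p = 0.043). Rab43, the last of the 4, which is outside the rule for named genes and was chosen after its values were seen, turned to -0.26 (adjusted p = 0.28) with its most variable probe set.

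Of the 14 synaptotagmins only Syt12, which lacks the residues that bind calcium, passed (0.61, SE 0.19, adjusted p = 0.047), and the list had a median of -0.06. The epithelial plasma membrane SNAREs Vamp5 (1.19, SE 0.27, adjusted p = 0.016) and Vamp8 (0.49, SE 0.13, adjusted p = 0.024) were higher, and the other 7 of 9 did not pass, Stx3 of the apical membrane among them (0.34, SE 0.12, adjusted p = 0.071). Of 15 endosome and lysosome Rabs 1 was higher (Rab20; 0.42, SE 0.13, adjusted p = 0.042), and of 5 endosomal SNAREs none passed limma's test, with Snap47 and Stx8 at an unadjusted p of 0.017 and 0.034.

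The partners of these proteins in regulated secretion, 30 measured, held 5 higher and 1 lower in Sec-Pro (median 0.03). Higher were Cadps, which primes dense-core vesicles (2.03, SE 0.15, adjusted p = 6.3e-05), Cplx2, a complexin that clamps SNARE complexes (1.86, SE 0.19, adjusted p = 0.00031), Mlph, an effector of Rab27 (1.85, SE 0.25, adjusted p = 0.0016), and Pclo, a scaffold of release sites (1.46, SE 0.18, adjusted p = 0.00094). Scamp1 was the other (0.91), and Rab3il1, an exchange factor for Rab3, was lower (-0.42). Of 23 partners in apical recycling 1 was higher and 4 lower, led by Mal2, a membrane protein of transcytosis, at 9.24, 9.14, 8.95 and 8.56 in Sec-Pro against 10.23 and 10.40 in Ent-Pro (-1.34, SE 0.17, adjusted p = 0.0013).

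Cell type markers moved with these genes. All 14 enteroendocrine, 7 goblet and 4 Paneth markers and 5 of 6 tuft cell markers were called higher in Sec-Pro. Means of the enteroendocrine markers (replicate 1, then 2) were 10.46 and 9.55 after Rbpj deletion and 10.31 and 10.06 after DBZ. ISC stood at 8.09 and 8.40, Ent-Pro at 6.21 and 6.23 and ENT at 5.59 and 5.54. Between the arrays with Rbpj deleted, Snap25, Rab3c and Stx1a were higher on replicate 1, whereas Rab27b, Rab3d, Sytl4 and Stx17 were lower there. The source of these differences between replicates was not tested. The goblet mean was 12.72 and 12.80 with Rbpj deleted and 13.16 and 13.31 with DBZ against 6.12 and 6.08 in Ent-Pro. The tuft mean was 6.48 and 8.64 with Rbpj deleted, 8.36 and 8.41 with DBZ and 6.00 and 5.57 in Ent-Pro. Of the 7 enterocyte markers none was called (median 0.27). Their mean was 13.83 and 13.67 with Rbpj deleted, 13.40 and 12.92 with DBZ and 13.35 and 13.00 in Ent-Pro. Markers of enteric neurons and glia, 10 measured, had means of 5.13 to 5.43 on every array, with 1 called higher and 1 lower. Of the leukocyte markers 5 of 12 were called higher, and Rab30 and Rab31 were highest on the Rbpj Sec-Pro replicate 1 array, where that mean was highest; the part of these cells in the results was not tested.

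Many of these calls were lost without 1 of the 2 Ent-Pro arrays. Without replicate 1 of Ent-Pro 9 members passed and without replicate 2 only 7, against 22 (13 without DBZ Sec-Pro replicate 2), and Rab3c, Rab30, Stx17, Stx18, Syt12, Vamp4, Vamp8, Rab1a, Rab2a, Rab4b, Rab17, Rab20 and Rab43 were lost without either Ent-Pro array (Vamp5, at 0.72 and adjusted p = 0.14, and Sytl1 without replicate 2). Rab15, Rab27b, Rab3d, Snap25, Stx5a, Sytl2 and Sytl4, 7 of the 22, passed under every alternative in which they were tested (Snap25, Sytl2 and Sytl4 were left out where only genes above the median level were kept). With the mean of a gene's probe sets Rab17 (-0.28, adjusted p = 0.19), Vamp4 (0.32, adjusted p = 0.086) and Rab2a (0.20, adjusted p = 0.16) were not called, and Vamp5 was at 0.61 (adjusted p = 0.028).

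Sec-Pro against ENT set the secretory progenitors beside the mature absorptive cell, and divided the members in both directions. Of 91 members 13 were higher in Sec-Pro and 22 lower, 38.5%, beside 45.6% of all genes, 20% higher and 25.6% lower. With each array centred on its median the split was 11 higher and 43 lower, and centring moved the median of all genes from -0.11 to -0.30. The comparison shares the Sec-Pro arrays with that against Ent-Pro. Rab15 was 11.1-fold higher (3.48, SE 0.16, adjusted p = 2.6e-06), Rab3d 6.53-fold (2.71, SE 0.22), Rab27b 4.66-fold (2.22, SE 0.13), and Sytl4, near background in ENT, at least 4.22-fold (measured 2.33, SE 0.14). Snap25 was at least 1.97-fold and Rab3c at least 1.71-fold higher, both near background in ENT.

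A pair of SNAREs separated Sec-Pro from ENT more than from Ent-Pro. Stx17 read 8.18 and 9.14 in Rbpj Sec-Pro, 9.58 and 9.58 in DBZ Sec-Pro, 8.06 and 8.41 in Ent-Pro, 8.79 and 8.63 in ISC and 6.83 and 7.28 in ENT. It was lowest in ENT, 4.19-fold below Sec-Pro (2.07, SE 0.25, adjusted p = 0.00031) and 2.26-fold below Ent-Pro (ENT minus Ent-Pro -1.18, SE 0.29, adjusted p = 0.011). The fall from Ent-Pro was lost with the mean of its 4 probe sets (-0.46, adjusted p = 0.092) and without Ent-Pro replicate 2 or ENT replicate 1. Stx1a read 6.46 and 6.19 in ENT, below all other arrays. It was 2.92-fold higher in Sec-Pro (1.54, SE 0.26, adjusted p = 0.0015), but its second probe set was flat (5.18 to 5.27 by group), and the mean of both gave 0.79 (adjusted p = 0.0025).

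The members lower in Sec-Pro than in ENT were mostly Rabs and SNAREs of apical, recycling and endosomal membranes. Of the 12 apical and recycling Rabs 5 were lower and 2 higher, of 9 epithelial plasma membrane SNAREs 4 were lower, of 15 endosome and lysosome Rabs 5 and of 5 endosomal SNAREs 4. Rab17 had the largest difference: 9.06 and 9.15 with Rbpj deleted and 9.26 and 8.91 with DBZ against 10.79 and 10.66 in ENT, 3.09-fold lower (-1.63, SE 0.14, adjusted p = 6e-05). Syt12 was 2.40-fold lower, Vamp5 2.29-fold, Rab4a of rapid recycling 2.04-fold and the early endosomal Rab5c 1.97-fold (adjusted p from 0.00022 to 0.0070). Vamp5 was not called without ENT replicate 2. Rab22a (-0.88), Rab20 (-0.78) and Rab1b of the early secretory pathway (-0.76) were lower as well (adjusted p from 0.00056 to 0.0012).

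Vamp8 was 1.66-fold lower in Sec-Pro than in ENT (-0.73, SE 0.13, adjusted p = 0.0017) and Rab8a 1.59-fold (-0.67, SE 0.12, adjusted p = 0.0018), with no overlap of the arrays. Stx3 was 1.43-fold lower (-0.52, SE 0.12, adjusted p = 0.0073), a call lost without ENT replicate 1. Rab11a was 1.53-fold lower (-0.61, SE 0.18, adjusted p = 0.024) with overlapping arrays, and was not called without either ENT array or DBZ Sec-Pro replicate 2, or with the mean of its probe sets. Rab3b, the one lower of the 7 Rabs of regulated secretion (-0.35, SE 0.11, adjusted p = 0.026), was not called without either ENT array or DBZ Sec-Pro replicate 1. Sytl1 was 2.61-fold higher in Sec-Pro (1.38, SE 0.14, adjusted p = 0.00015).

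Rab25, an epithelial relative of Rab11, did not differ between these groups beyond the spread: 10.26 to 10.54 in Sec-Pro and 10.35 on both ENT arrays. Vamp2 (6.79 to 7.57 against 7.23 and 6.91) and Rab27a (4.89 to 5.61 against 5.40 and 5.36) did not pass either. All 7 goblet, 4 Paneth and 14 enteroendocrine markers were called higher in Sec-Pro than in ENT, 3 of 7 enterocyte markers and 4 of 9 stromal markers lower, and none of the 12 leukocyte markers passed limma's test (1 at an unadjusted p of 0.024); their part in these values was not tested.

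The villus against the crypt within the absorptive branch, ENT against Ent-Pro, gave more rises than falls among the members. Of 91 members 26 were higher in ENT and 6 lower, 35.2%, beside 38.7% of all genes, 18.5% higher and 20.2% lower. The median log2 fold change was 0.21 over the members and 0.02 over all genes, and centring moved the latter to 0.15. Among apical and recycling Rabs 5 of 12 rose and 1 fell (median 0.23), among epithelial plasma membrane SNAREs 4 of 9 rose (median 0.24), among endosome and lysosome Rabs 5 of 15 (median 0.26) and among endosomal SNAREs 4 of 5 (median 0.70). Of the 12 ER and Golgi Rabs 6 rose and 1 fell (median 0.43), and of the 5 ER and Golgi SNAREs 1 rose and 1 fell (median 0.13). Of the 7 Rabs of regulated secretion none passed limma's test, with Rab37 and Rab3a at an unadjusted p of 0.026 and 0.043, Rab3d at -0.37 (SE 0.26) and Rab27b at 0.21 (SE 0.15). Vamp2 (0.22, SE 0.19) did not pass, nor did Snap25, which was near background in both groups.

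Rab17 read 10.79 and 10.66 in ENT, 9.64 and 9.48 in Ent-Pro and 9.98 and 9.67 in ISC. The ENT arrays were above all others and it was 2.24-fold higher than in Ent-Pro (1.16, SE 0.16, adjusted p = 0.00056). Rab11a, the Rab of the apical recycling endosome, read 12.15 and 11.94 in ENT, 11.22 and 11.27 in Ent-Pro and 11.94 and 11.27 in Rbpj Sec-Pro. It was 1.74-fold above Ent-Pro (0.80, SE 0.21, adjusted p = 0.015), but its second probe set hardly moved (9.74 in ENT and 9.66 in Ent-Pro), and the call was lost with the mean of both (0.44, adjusted p = 0.060) and without either Ent-Pro array or ENT replicate 1. Rab8a, which carries cargo to the brush border, read 10.53 and 10.58 in ENT against 9.86 and 9.75 in Ent-Pro, 1.68-fold higher (0.75, SE 0.13, adjusted p = 0.0022). Rab4a and Rab4b rose 1.70-fold and 1.74-fold (adjusted p = 0.0020 and 0.0018), whereas Rab25 read 10.35 on both ENT arrays against 10.44 and 10.58 and did not pass. The one that fell was Rab15, 1.77-fold (fell by 0.83, SE 0.18, adjusted p = 0.0065), a call lost without Ent-Pro replicate 2.

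Stx3, the syntaxin of the apical membrane, read 11.15 and 11.09 in ENT, 10.38 and 10.15 in Ent-Pro and 10.35 and 10.26 in ISC, with Sec-Pro between at 10.41 to 10.88. It was 1.81-fold above Ent-Pro (0.86, SE 0.14, adjusted p = 0.0012). Vamp8, a VAMP of late endosomes and of apical and granule exocytosis, read 11.79 and 11.80 in ENT, 10.57 and 10.57 in Ent-Pro, 11.31 and 10.99 in Rbpj Sec-Pro, 11.03 and 10.92 in DBZ Sec-Pro and 10.21 and 9.94 in ISC. The ENT arrays were above all others, and the difference from Ent-Pro was 2.34-fold (1.23, SE 0.15, adjusted p = 0.00027). Vamp5, first described in muscle, read 7.72 and 7.95 in ENT, 5.92 and 4.98 in Ent-Pro, 7.13 and 7.27 in Rbpj Sec-Pro, 6.20 and 5.96 in DBZ Sec-Pro and 4.95 and 5.68 in ISC. Its rise was 5.21-fold (2.38, SE 0.31, adjusted p = 0.00044), with the Ent-Pro array at 4.98 in the range of the background bound (4.70 to 5.05). Its second probe set was flat (4.95 to 5.10 by group), and the mean of both gave 1.26 (adjusted p = 0.00092). Snap23, the SNAP of non-neuronal cells, was 1.45-fold higher (adjusted p = 0.047), a call lost without any 1 of the ISC, DBZ Sec-Pro or ENT arrays or Ent-Pro replicate 1.

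**Figure D3:**
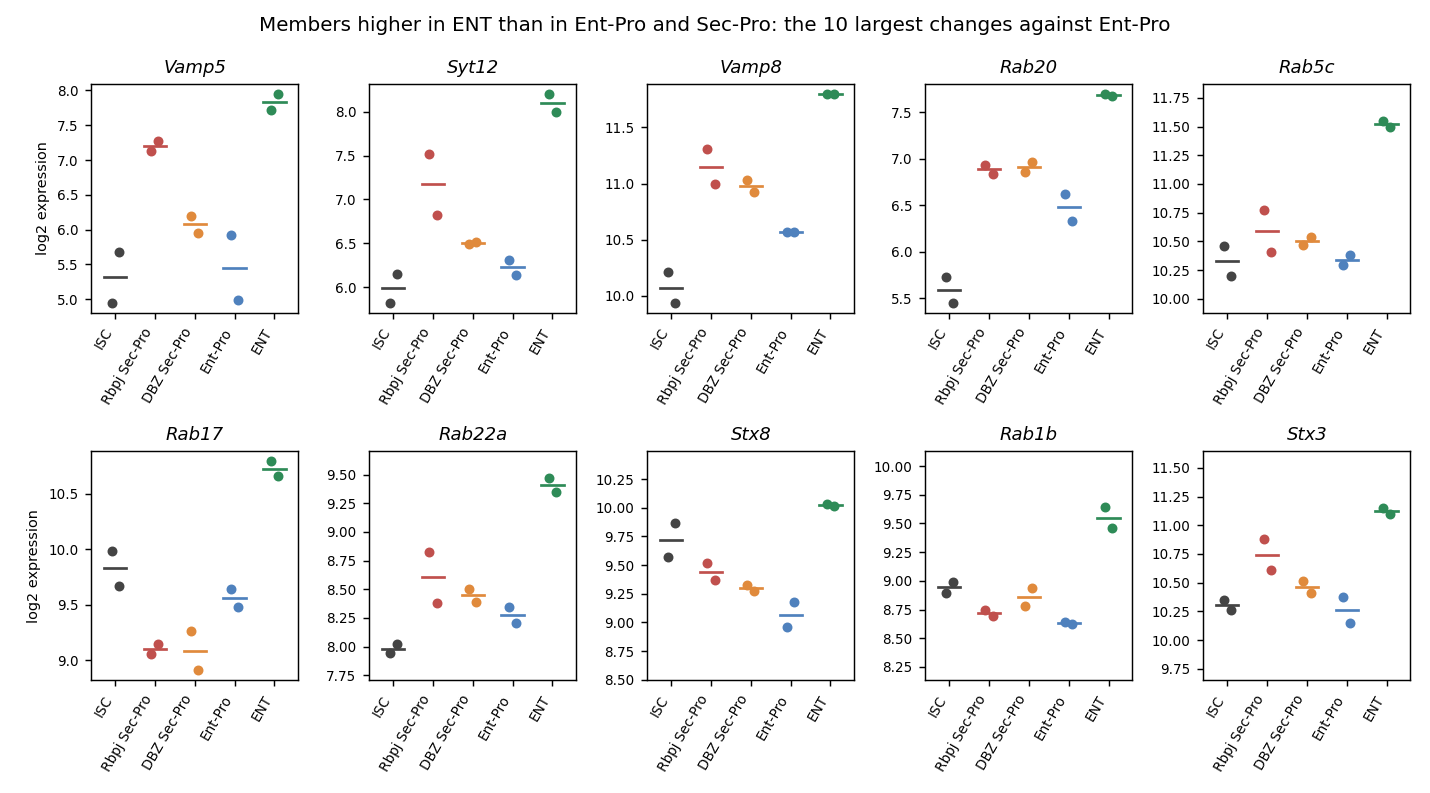
Log2 expression (vertical axis, a different range in each panel) of the 10 members with the largest rise from Ent-Pro to ENT among those also higher in ENT than in Sec-Pro, in the 5 groups along the horizontal axis; points are arrays and lines group means. In each panel both ENT arrays lie above the other 8.

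Of the endosome and lysosome Rabs, Rab31, Rab20, Rab5c, Rab22a and Rab7 rose. Rab31, a relative of Rab5 and Rab22, read 7.64 and 7.58 in ENT, 6.31 and 6.47 in Ent-Pro and 8.32 and 6.96 in Rbpj Sec-Pro, and was 2.33-fold above Ent-Pro (1.22, SE 0.35, adjusted p = 0.021). That call was lost without any 1 of the Ent-Pro or ENT arrays and with the mean of its probe sets (0.53), the second of which was dim (4.59 in ENT and 4.75 in Ent-Pro). Rab5c read 11.55 and 11.50 in ENT and 10.20 to 10.78 on all other arrays, 2.28-fold above Ent-Pro (1.19, SE 0.15, adjusted p = 0.00038). Rab22a (2.19-fold) and Rab20 (2.31-fold), both of endocytic compartments, and the late endosomal syntaxin Stx8 (1.94-fold) rose too, with both ENT arrays above all others. Stx7, its partner, rose 1.62-fold, Stx12 of recycling endosomes 1.68-fold and Snap29 1.58-fold (adjusted p from 0.0027 to 0.013), and Stx12 and Stx7 lost the call without Ent-Pro replicate 2 or ENT replicate 2, and Stx12 also without Ent-Pro replicate 1.

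Rab30 had the largest fold, and Syt12 the largest among synaptotagmins. Rab30 read 9.37 and 9.75 in ENT, 6.95 and 7.31 in Ent-Pro, 10.18 and 9.20 in Rbpj Sec-Pro, 8.29 and 7.00 in DBZ Sec-Pro and 6.34 and 5.97 in ISC. ENT overlapped Rbpj Sec-Pro and was 5.40-fold above Ent-Pro (2.43, SE 0.43, adjusted p = 0.0020). Syt12 read 8.20 and 7.99 in ENT against 6.31 and 6.14 in Ent-Pro and 5.82 to 7.51 in the other groups, 3.66-fold above Ent-Pro (1.87, SE 0.22, adjusted p = 0.00026). The other 13 synaptotagmins did not pass.

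Below Ent-Pro in ENT were, besides Rab15 and Stx17, Stx1a (-1.05, SE 0.30, adjusted p = 0.021), Sytl4, near background in ENT and at least 1.53-fold lower (adjusted p = 0.0023), Sytl1 (-0.58, adjusted p = 0.023) and Rab33a, near background in ENT and at least 1.03-fold lower (adjusted p = 0.018). Stx1a moved to -0.57 with the mean of its probe sets and was lost without Ent-Pro replicate 2 or ENT replicate 2. Sytl1 was lost without either Ent-Pro array or ENT replicate 2, and Rab33a without either ENT array or Ent-Pro replicate 1.

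Partners in apical recycling, 23 measured, held 7 higher and 3 lower in ENT than in Ent-Pro (median 0.19). Myo5b, the motor of Rab11 and Rab8 vesicles, read 10.76 and 11.17 in ENT against 10.18 and 9.96 in Ent-Pro (0.90, SE 0.21, adjusted p = 0.0092). Its relative Myo5c, a motor of exocrine cells, fell instead, from 8.92 and 8.96 to 7.34 and 6.89 (-1.83, SE 0.22, adjusted p = 0.00027), and was 2.13 (SE 0.19) higher in Sec-Pro than in ENT. Ehd1 of recycling endosomes rose by 1.19 (SE 0.16), the brush border linker Ezr by 0.86 (SE 0.24) and its binding partner Slc9a3r1 by 0.90 (SE 0.16). Stxbp2, the Munc18 protein that binds Syntaxin 3, is in the list of partners in regulated secretion, 5 of 30 higher and 2 lower, and rose by 0.87 (SE 0.13, adjusted p = 0.00079).

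Other cells' markers moved here too. All 6 tuft cell markers were called higher in ENT (means of 8.89 and 8.47 against 6.00 and 5.57 in Ent-Pro) and 6 of 12 leukocyte markers, with none lower. Their part in the rise of Vamp5, Vamp8, Rab30 and Syt12 was not tested. Without Ent-Pro replicate 1 or 2 the members called fell from 32 to 21 and 19, and 17 of the 32 passed under every alternative in which they were tested (Rab20, Syt12, Sytl4 and Vamp5 were not tested among genes above the median level). Of the enterocyte markers 5 of 7 were also called higher in ENT.

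The promoters of members that moved are shown from RefSeq start sites on GRCm38.p6, which the table holds for 72 of the 91. Among those secretory and villus members whose start is the outermost of the gene, the 2 with the largest change in each set are printed, as the 250 bases before the start, 5′ to 3′ on the minus strand except Vamp4 on the plus strand. Capitals mark the E-box CAGCTG or CAGATG, forms bound by basic helix-loop-helix factors, the family of Atoh1. Sytl1 lies at chr4:133263088-133263337, Vamp4 at chr1:162570265-162570514, Vamp5 at chr6:72380469-72380718 and Vamp8 at chr6:72390668-72390917. Vamp5 and Vamp8 are neighbours, with starts 10199 bases apart on the same strand, and both rose from Ent-Pro to ENT.
Sytl1: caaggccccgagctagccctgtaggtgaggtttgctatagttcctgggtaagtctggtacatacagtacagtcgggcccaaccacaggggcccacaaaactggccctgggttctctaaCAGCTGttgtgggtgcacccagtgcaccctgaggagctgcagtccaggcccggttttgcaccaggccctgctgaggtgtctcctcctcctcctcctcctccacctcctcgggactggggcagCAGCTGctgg
Vamp4: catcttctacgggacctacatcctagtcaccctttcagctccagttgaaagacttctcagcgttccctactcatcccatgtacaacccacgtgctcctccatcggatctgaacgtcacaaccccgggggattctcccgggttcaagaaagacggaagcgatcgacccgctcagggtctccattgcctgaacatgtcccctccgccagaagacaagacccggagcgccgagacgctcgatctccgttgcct
Vamp5: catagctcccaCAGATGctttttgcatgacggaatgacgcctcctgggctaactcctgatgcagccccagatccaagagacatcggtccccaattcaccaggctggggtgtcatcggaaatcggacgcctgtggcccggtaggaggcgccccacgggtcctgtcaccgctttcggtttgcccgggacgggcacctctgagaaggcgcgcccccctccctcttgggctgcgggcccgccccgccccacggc
Vamp8: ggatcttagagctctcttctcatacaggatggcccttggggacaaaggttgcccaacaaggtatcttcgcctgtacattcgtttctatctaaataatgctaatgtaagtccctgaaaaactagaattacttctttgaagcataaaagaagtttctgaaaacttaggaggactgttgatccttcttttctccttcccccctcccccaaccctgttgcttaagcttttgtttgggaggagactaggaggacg
CAGCTG, searched as such since it is its own reverse complement, stood in 12 of 72 members' windows (16.7%) and in 12.7% of all 27025 windows. It was in those of Rab15, Rab3c and Sytl1 among members higher in Sec-Pro than in both absorptive groups, and of Rab17, Stx12 and Stx7 among those highest in ENT. CAGATG, on either strand, stood in 7 of 72 (9.72%) and in 14.5% of all, and CAAAGTCC, a form bound by Hnf4, on either strand in 1 of 72 (1.39%) and in 1.21% of all. The E-box forms cannot overlap one another, and a match is only a description of the letters.

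Against ISC, Rab1a, Rab2a and Rab18 of the early secretory pathway, the endosomal Stx7 and Stx12 and the apical Rab11a and Rab25 were higher in both progenitor groups. For Sec-Pro against ISC 38 of 91 members were higher and 9 lower, 51.6%, beside 45.2% of all genes, 18% higher and 27.2% lower, and the median was 0.14 beside -0.11 over all genes. Cyclic loess between arrays gave 42 higher and 4 lower. For Ent-Pro against ISC 16 were higher and 12 lower, 30.8%, beside 25.5% of all genes, 12.1% higher and 13.5% lower, with medians of 0.01 and -0.02. Centring each array gave 17 higher and 8 lower and moved the median of all genes to 0.10. The comparisons share the ISC arrays, so their values are given side by side.

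**Figure D4:**
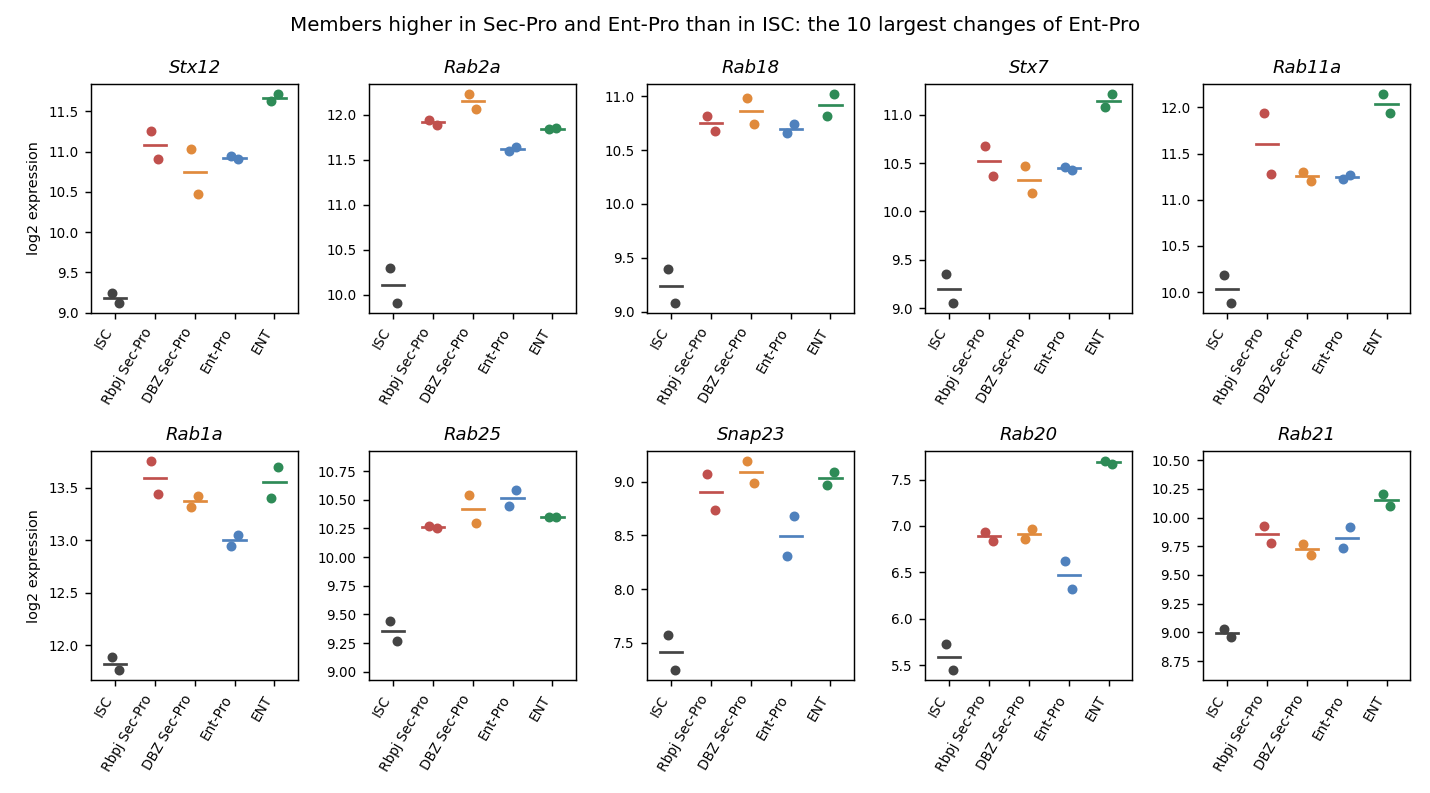
Log2 expression (vertical axis, a different range in each panel) of the 10 members with the largest rise from ISC to Ent-Pro among those also higher in Sec-Pro than in ISC, in the 5 groups along the horizontal axis; points are arrays and lines group means. In each panel both ISC arrays are the lowest of the 10.

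The Rabs of the ER and Golgi were among the largest. Rab1a read 11.89 and 11.76 in ISC, 13.32 to 13.75 in Sec-Pro, 12.94 and 13.05 in Ent-Pro, and in ENT 13.41 and 13.70. The ISC arrays were lowest, and the log2 fold changes were 1.66 (SE 0.13, adjusted p = 3.5e-05) for Sec-Pro and 1.18 (SE 0.15, adjusted p = 0.0010) for Ent-Pro. Rab18, of ER and lipid droplets, read 9.40 and 9.08 in ISC and 10.66 to 11.02 on every other array, with changes of 1.56 and 1.46 (adjusted p = 4.6e-05 and 0.00041). Rab2a, also between ER and Golgi, read 10.30 and 9.91 in ISC, 11.89 to 12.23 in Sec-Pro and 11.60 and 11.64 in Ent-Pro, with changes of 1.93 and 1.52 (adjusted p = 1.5e-05 and 0.00027). With the mean of its probe sets these were 0.54 and 0.34, and the second was no longer called (adjusted p = 0.053). Over the list of ER and Golgi Rabs 7 of 12 rose in Sec-Pro and 4 rose and 1 fell in Ent-Pro (medians 0.48 and 0.28).

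Endosomal SNAREs followed. Stx12 read 9.25 and 9.13 in ISC, 10.47 to 11.26 in Sec-Pro, 10.95 and 10.90 in Ent-Pro, and in ENT 11.63 and 11.71. It rose by 1.73 (SE 0.17, adjusted p = 7.3e-05) and 1.74 (SE 0.19, adjusted p = 0.00051), 3.32-fold and 3.34-fold. Stx7 rose by 1.22 and 1.24 (adjusted p = 0.00018 and 0.0011). Snap29 was the third to rise (0.52 and 0.47, adjusted p = 0.0038 and 0.023), but with its most variable probe set these were 0.32 (adjusted p = 0.31) and -0.05 (adjusted p = 0.93), and in Ent-Pro the call was lost without ISC replicate 2 or either Ent-Pro array. Of the 5 endosomal SNAREs 3 rose and 1, Stx8, was lower in each comparison (-0.35 and -0.65, adjusted p = 0.044 and 0.0093), a call that ended with the mean of its probe sets (0.03 and -0.27), and in Sec-Pro turned to 0.29 (adjusted p = 0.095) with the most variable one. In Sec-Pro the call of Stx8 was lost without any 1 array other than replicate 1 of ISC or of Rbpj Sec-Pro, and in Ent-Pro without ISC replicate 2 or Ent-Pro replicate 1.

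Apical members already differed between stem cell and progenitor. Rab11a read 10.18 and 9.88 in ISC and 11.21 or more elsewhere, with changes of 1.40 (SE 0.18, adjusted p = 0.00035) and 1.21 (SE 0.21, adjusted p = 0.0035). Rab25 read 9.44 and 9.27 in ISC and 10.26 to 10.58 on every other array, with changes of 0.98 (SE 0.11, adjusted p = 0.00017) and 1.16 (SE 0.13, adjusted p = 0.00056). Rab25 did not pass limma's test in any of the comparisons without ISC (lowest unadjusted p 0.16). Rab8a rose by 0.70 and 0.62 (adjusted p = 0.0013 and 0.010), the latter lost without ISC replicate 2 or Ent-Pro replicate 1. Snap23, at 7.58 and 7.25 in ISC and 8.30 to 9.19 elsewhere, rose by 1.59 and 1.08 (adjusted p = 9.7e-05 and 0.0034). Vamp8 rose by 0.99 and 0.50 (adjusted p = 0.00031 and 0.035), the latter lost without ISC replicate 2 or any 1 of the DBZ Sec-Pro, Ent-Pro or ENT arrays.

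Rab17 went the other way in Sec-Pro, at -0.73 (SE 0.14, adjusted p = 0.0027), though the mean of its probe sets gave -0.22 (adjusted p = 0.25), and did not pass in Ent-Pro. Stx4a, the syntaxin of the basolateral membrane, read 9.49 and 9.29 in ISC, 8.28 to 8.57 in Sec-Pro, 8.60 and 8.62 in Ent-Pro, and in ENT 8.73 and 8.64. ISC was highest, and the log2 fold changes were -0.94 (SE 0.11, adjusted p = 0.00019) and -0.78 (SE 0.13, adjusted p = 0.0026). The other 7 members lower in Sec-Pro, besides Stx4a and Rab17, were Rab12 (-0.62), Rab40b (-0.59), Stx6 (-0.45), Syt11 (-0.43), Rab40c (-0.41), Rab4a (-0.40) and Stx8. All 7 of these calls were lost under some alternative: Rab12, Syt11 and Rab4a with cyclic loess, and Rab40b, Stx6 and Rab40c with the mean of their probe sets. Without ISC replicate 2 Rab12, Syt11, Rab40c and Rab4a were not called, without ISC replicate 1 Stx6, Syt11 and Rab4a, without DBZ Sec-Pro replicate 1 Rab12, Stx6 and Rab4a, and without any 1 of the other Sec-Pro arrays Stx6. In Ent-Pro Rab12 (-0.66), Rab40c (-0.54) and Syt11 (-0.49) were lower too, each lost without either Ent-Pro array, Syt11 also without either ISC array and Rab12 without ISC replicate 2 or any 1 of the DBZ Sec-Pro or ENT arrays.

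Rab30 was 5.71-fold higher in Sec-Pro than in ISC (2.51, SE 0.37, adjusted p = 0.00070), with the Rbpj and DBZ arrays far apart, and did not pass in Ent-Pro. Snap25, near background in ISC, was at least 2.02-fold higher (measured 1.63, SE 0.22, adjusted p = 0.00038). Of the endosome and lysosome Rabs 6 were higher in Sec-Pro, with Rab31 at 1.54 (SE 0.30) and Rab20 at 1.31 (SE 0.13). Vamp7, a VAMP of late endosomes and lysosomes, was higher by 1.15 (adjusted p = 0.018), Vamp4 by 0.56 (adjusted p = 0.0037) and Rab28 by 0.43 (adjusted p = 0.029). Vamp7 was not called without either ISC array, Rab28 without ISC replicate 2 or DBZ Sec-Pro replicate 2 and Vamp4 with the mean of its probe sets.

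Rab3d, Sytl2, Rab15 and Sytl4 were higher than in ISC in Sec-Pro and lower in Ent-Pro. Of the 7 Rabs of regulated secretion 3 were higher in Sec-Pro and 1 lower in Ent-Pro, of the 4 SNAREs of regulated secretion 1 was higher in Sec-Pro and none passed limma's test in Ent-Pro (Stx1a had an unadjusted p of 0.037), and of the 3 synaptotagmin-like proteins 3 were higher in Sec-Pro and 2 lower in Ent-Pro. Rab3d was 0.91 (SE 0.22, adjusted p = 0.0096) higher in Sec-Pro and 1.42 lower in Ent-Pro (Ent-Pro minus ISC -1.42, SE 0.26, adjusted p = 0.0044), Sytl2 was 3.09 higher and fell by 1.63, Rab15 was 1.81 higher and fell by 0.84, and Sytl4 was 0.82 higher and fell by 0.64. All of these were called, and each differed between Sec-Pro and Ent-Pro in the test given above. With the mean of its probe sets Rab3d was at -0.62 in Ent-Pro (adjusted p = 0.028), and without ISC replicate 2 its rise in Sec-Pro was not called, nor the fall of Rab15 in Ent-Pro (also not called without Ent-Pro replicate 1). The fall of Sytl4 was not called without ISC replicate 1 or either Ent-Pro array. Rab27b rose in Sec-Pro by 2.02 (SE 0.13, adjusted p = 1.3e-05) and did not pass in Ent-Pro. Rab3c, also called higher in Sec-Pro (0.93), had overlapping arrays and was not called under 12 of 17 alternatives. With the mean of its probe sets Rab3c was at 0.49 (limma adjusted p = 0.065), and without ISC replicate 1 at 0.61. Stx5a fell in Ent-Pro from 10.51 on both ISC arrays (-0.84, SE 0.12, adjusted p = 0.0012) and did not pass in Sec-Pro. ISC held secretory markers at intermediate levels: the goblet mean was 10.28 and 10.43, between Sec-Pro and Ent-Pro, and 7 of 7 goblet and 11 of 14 enteroendocrine markers were lower in Ent-Pro than in ISC. Other markers moved with these comparisons as well. All 7 enterocyte markers were higher than in ISC in Sec-Pro and in Ent-Pro, with means of 10.91 and 10.81 in ISC, 12.92 to 13.83 in Sec-Pro and 13.35 and 13.00 in Ent-Pro. Of the leukocyte markers 8 of 12 were higher in Sec-Pro than in ISC and 1 in Ent-Pro, and of the tuft markers 5 of 6 were higher in Sec-Pro. The part of these cells in the members' values was not tested.

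Without ISC replicate 2 the members called were 31 instead of 47 in Sec-Pro and 18 instead of 28 in Ent-Pro, and without Ent-Pro replicate 1 the latter were 14. Under every alternative in which they were tested 22 of the 47 and 13 of the 28 passed. Of these, Rab20, Rab31, Snap25, Sytl2 and Sytl4 in Sec-Pro and Rab20 and Sytl2 in Ent-Pro were not tested among genes above the median level.

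The 2 ways of enriching Sec-Pro differed in fewer members. DBZ Sec-Pro was higher than Rbpj Sec-Pro in 10 members and lower in 3, 14.3%, beside 16.4% of all genes, 9.34% higher and 7.08% lower. Granule genes were among those higher with DBZ: Rab27b by 1.08 (SE 0.15, adjusted p = 0.0045), 2.12-fold, Rab3d by 1.05 (SE 0.26, adjusted p = 0.029), Sytl1 by 0.89 (SE 0.17, adjusted p = 0.011) and Sytl4 by 0.71 (SE 0.16, adjusted p = 0.021). In all 4 the arrays did not overlap, which held for each of the 13 called members. It also held for all 28 members called for Ent-Pro against ISC and all 32 for ENT against Ent-Pro, which likewise compare 2 arrays with 2. The share of all genes without overlap was not counted. Rab40b, of a family of Rabs with a SOCS box, read 5.88 and 5.91 with DBZ against 5.00 and 4.93 (0.93, SE 0.13, adjusted p = 0.0047). Lower with DBZ were Rab30 at 8.29 and 7.00 against 10.18 and 9.20 (-2.05, SE 0.43, adjusted p = 0.017), Vamp5 at 6.20 and 5.96 against 7.13 and 7.27 (-1.12, SE 0.31, adjusted p = 0.043) and Syt8 at 5.35 and 5.41 against 6.51 and 6.02 (-0.88, SE 0.18, adjusted p = 0.017).

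The partners Mlph and Cplx2 were higher with DBZ as well (1.48, SE 0.29, and 1.38, SE 0.21), and Syp, a protein of synaptic vesicles, was lower (-1.06, SE 0.24, adjusted p = 0.023). Of the goblet markers 3 of 7 were higher and 1 lower, of the enteroendocrine markers 5 of 14 higher, of the enteric neuron and glia markers 3 of 10 higher and 1 lower, and of the enterocyte markers 2 of 7 lower; their part was not tested. The comparison rested on few arrays: with only these 4 arrays in the fit limma called none of the 91 members (21 at an unadjusted p under 0.05), without DBZ Sec-Pro replicate 2 it called 2, and without Rbpj Sec-Pro replicate 1 it called 6, of which Rab27b, Rab40b, Rab6b and Sytl1 were among the 13. Without DBZ Sec-Pro replicate 2 those left were Rab27b and Rab40b. Sytl4, Vamp4 and Vamp5 were not called with the mean of their probe sets (0.39, 0.30 and -0.61).

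The 25 members called in no comparison included 9 of the 14 synaptotagmins, among them the calcium sensors Syt1, Syt2, Syt7 and Syt9 at 3.66 to 5.05, together with Rab3a, Rab27a, Rab37, Vamp1 and Vamp2 of regulated secretion. Rab10, a Rab of basolateral transport, was bright and even, at 10.48 to 11.08 over the 10 arrays. What an array can measure is limited by signal over background, and no fold is given for the 7 members near background in every group, 2 of which, Syt4 and Syt13, were called in comparisons with Sec-Pro by differences of 0.42 or less.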

How the data were processed

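Total RNA of 10 samples was hybridised to Affymetrix 430A 2.0 arrays, and the authors deposited 1 table of log2 expression values for 22690 probe sets; RMA and MAS5 are named in the submitters' processing notes without a role, and the scale was taken from the values (2.90 to 15.18). Control probe sets (64) were left out. Of the rest and the controls together, 20393 probe sets named 1 gene in the platform annotation, 691 several and 1606 none, and a lookup by Entrez ID changed 0 symbols. Sytl3 lies on a probe set with several symbols and was not used, and 49 members had more than 1 probe set.

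No further normalization was applied. limma 3.58.1 in R 4.3.3 fitted 1 model of 5 group means to all 12393 genes (5 residual degrees of freedom and 3.75 from the prior), and two-sided p-values were adjusted by Benjamini-Hochberg over all genes in each of 6 comparisons; calls were made at an adjusted p under 0.05. The fit was tested on simulated data. The number of arrays limits the precision. The genes and the lists were chosen with earlier results of these data known. Named were, per comparison, the 8 members with the largest called change each way, up to 4 called members of a list, 12 members whatever their test, and up to 4 called partners of a list.

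Alternatives were median centring, cyclic loess, genes above the median level, other probe set rules, a fit of only the groups compared, trend and robust variance, a replicate block, and leaving out each array.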

Additional observations from a re-analysis of the deposited data

Results flagged for a closer look

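Each member called between DBZ and Rbpj Sec-Pro is listed because the 2 ways of enriching secretory progenitors gave different distances from the same Ent-Pro arrays, by the limma test of the difference itself. Higher with DBZ were Rab27b by 1.08 (2.97 above Ent-Pro with DBZ and 1.89 with Rbpj deletion; adjusted p = 0.0045), Rab40b by 0.93 (0.13 and -0.80; adjusted p = 0.0047), Sytl1 by 0.89 (1.25 and 0.36; adjusted p = 0.011) and Rab3d by 1.05 (2.86 and 1.81; adjusted p = 0.029). Sytl4 differed by 0.71 (1.82 and 1.11; adjusted p = 0.021). The other members higher with DBZ were Rab6b by 0.68, Rab29 by 0.57, Snap47 by 0.56, Rab11b by 0.55 and Vamp4 by 0.50, with adjusted p from 0.024 to 0.039.

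Lower with DBZ were Rab30 by -2.05 (0.51 above Ent-Pro with DBZ and 2.57 with Rbpj deletion; adjusted p = 0.017), Vamp5 by -1.12 (0.63 and 1.75; adjusted p = 0.043) and Syt8 by -0.88 (-0.40 and 0.48; adjusted p = 0.017). None of the 13 kept its call under every alternative tried.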

How the results depend on the processing

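With only the groups compared in the fit, 14 members passed for Sec-Pro against Ent-Pro instead of 22 and 0 instead of 13 for DBZ against Rbpj Sec-Pro (21 at an unadjusted p under 0.05, lowest adjusted p 0.06, limma); for Ent-Pro against ISC 30 passed instead of 28, for ENT against Ent-Pro 34 instead of 32, for Sec-Pro against ISC 41 instead of 47 and for Sec-Pro against ENT 31 instead of 35. Centring each array gave 54 instead of 35 for Sec-Pro against ENT, and moved the median of all genes there from -0.11 to -0.30. Keeping genes above the median level, which tests fewer members, gave 22 for Sec-Pro against ENT and 7 for DBZ against Rbpj Sec-Pro. The shares of all genes called under the alternatives are not given here, so these counts do not single out the members. Leaving out 1 array at a time gave 7 to 25 members for Sec-Pro against Ent-Pro, 31 to 47 for Sec-Pro against ISC, 28 to 37 for Sec-Pro against ENT, 14 to 32 for Ent-Pro against ISC, 19 to 34 for ENT against Ent-Pro and 2 to 15 for DBZ against Rbpj Sec-Pro.

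The replicate numbers do not pair the arrays: deviations of same-numbered arrays correlated from -0.19 to 0.17. With the replicate block the 6 comparisons, in the order just given, called 19, 44, 35, 25, 30 and 12 members.

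Signs turned for these values, and the cause was not tested. Rab27a for Sec-Pro against Ent-Pro was 0.47 with the mean of its probe sets and 1.08 with the most variable one, and against ENT 0.31 and 0.90. For ENT against Ent-Pro Rab27a was -0.028 with cyclic loess. With the most variable probe set Rab40c was 0.28 for Sec-Pro and 0.19 for Ent-Pro against ISC, and Rab4a 0.37, Stx8 0.29 and Rab43 -0.20 for Sec-Pro against ISC, Snap29 -0.05 for Ent-Pro against ISC and Rab43 -0.26 for Sec-Pro against Ent-Pro. With the mean of its probe sets Stx8 was 0.03 for Sec-Pro against ISC. For Sec-Pro against ENT Vamp2 was -0.082 with centring and -0.0010 with the mean of its probe sets, and leaving out 1 array at a time gave -0.050 (without ENT replicate 2) to 0.27 for Vamp2 and -0.071 to 0.053 (without DBZ Sec-Pro replicate 2) for Rab25.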

Other observations

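Some SNAREs and fusion factors whose symbols fall outside the families described also differed between the groups. For Sec-Pro against Ent-Pro 27.8% of those measured were called, all higher, beside 24% of all genes called and 9.27% higher. For ENT against Ent-Pro 27.8% were called, all higher, beside 38.7% of all genes called and 18.5% higher. Of 18 measured, 5 were higher in Sec-Pro than in Ent-Pro and the others did not pass limma's test (lowest unadjusted p 0.069): Bet1 (0.74, SE 0.22, adjusted p = 0.040), Sec22b (0.60, SE 0.15, adjusted p = 0.022), Gosr2 (0.55, SE 0.10, adjusted p = 0.0073) and Gosr1 (0.50, SE 0.11, adjusted p = 0.015), SNAREs of the ER and Golgi, and Nsf (0.65, SE 0.14, adjusted p = 0.011), the ATPase that takes SNARE complexes apart. Nsf and Bet1 were also higher than in ISC, by 1.68 and 1.89 in Sec-Pro and by 1.03 and 1.15 in Ent-Pro. From Ent-Pro to ENT 5 of the 18 rose, led by Gosr2 (1.07, SE 0.12, adjusted p = 0.00020), with Ykt6, Sec22b, Gosr1 and Sec22a at 0.87, 0.85, 0.84 and 0.59. Use1, a SNARE of the ER, was lower than in ISC in Sec-Pro (-0.98) and in Ent-Pro (-0.88).

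Of 7 genes for the prenylation and recycling of Rabs, 4 were below their ISC level in Sec-Pro and 2 above it. That is 85.7% called, beside 45.2% of all genes. Rabac1, a Rab acceptor of the Golgi, was 1.11 higher (SE 0.12, adjusted p = 0.00015) and Rabif 0.81 higher (SE 0.11, adjusted p = 0.00037). Rabggta, a subunit of the enzyme that attaches the prenyl groups, was lower (-0.52, SE 0.10, adjusted p = 0.0035).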
